A study of Homo sapiens with 4 samples.

Results

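The 17q12 genes described here are MED1, CDK12, STARD3, TCAP, PNMT, PGAP3, ERBB2, MIEN1 and GRB7. These 9 genes were taken as a fixed list from the segment of chromosome 17 that is amplified in the SK-OV-3 cell line, out of 20033 protein-coding genes in the GENCODE annotation of the human genome (GRCh38). The rule that set the list used no measured value, although the genes were chosen with earlier results of these data known. The data were lists of places where RNA polymerase II (Pol II) was enriched, called peaks, from chromatin immunoprecipitation followed by sequencing (ChIP-seq). SK-OV-3 is an established human ovarian cancer line, and its cells carried either the short hairpin RNA shRRN3, which silences RRN3, a protein that RNA polymerase I needs to begin transcription of ribosomal DNA, or the control hairpin shLacZ. The study asked how the loss of RRN3 bears on transcription by Pol II. Each hairpin was represented by 1 Pol II library, so there was no replicate error to hold a difference between the lists against, and no p-value was computed. The design names 1 shRRN3 library without saying which hairpin sequence it carried, so an effect particular to that hairpin cannot be told apart from one of RRN3.

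ERBB2, also called HER2, is a receptor tyrosine kinase without a known ligand of its own that signals by pairing with other ERBB receptors. Its gene is amplified, and its protein overproduced, in a subset of breast, ovarian and other cancers, and SK-OV-3 is widely used as an ERBB2-amplified model. Neighbouring genes are copied along with it. Among them, GRB7 encodes an adaptor that binds activated receptors, MIEN1 a small membrane-anchored protein linked to cell migration, STARD3 a cholesterol-binding protein of late endosomes and PGAP3 an enzyme that remodels the lipid of GPI anchors. TCAP, or telethonin, belongs to the muscle sarcomere, and PNMT makes adrenaline from noradrenaline. At the other end of the segment, CDK12 phosphorylates the tail of Pol II during elongation, and MED1 is a subunit of Mediator, the complex that links transcription factors to Pol II.

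The promoters that matter most for what follows are those of MED1 and CDK12, the members at whose starts Pol II peaks were found, and that of ERBB2, at whose start there was none. The 250 bases before each start are given 5′ to 3′ on the strand of the gene. MED1 (chr17:39451264-39451513, minus strand) and CDK12 (chr17:39461236-39461485, plus strand) are from RefSeq on GRCh38.p14, and ERBB2 (chr17:39699814-39700063, plus strand) was read from GRCh38 before the start of its MANE Select transcript, the transcript chosen jointly by RefSeq and GENCODE to represent a gene. Capitals mark the word TCTCGCGA on either strand, which reads TCGCGAGA on the other.
MED1: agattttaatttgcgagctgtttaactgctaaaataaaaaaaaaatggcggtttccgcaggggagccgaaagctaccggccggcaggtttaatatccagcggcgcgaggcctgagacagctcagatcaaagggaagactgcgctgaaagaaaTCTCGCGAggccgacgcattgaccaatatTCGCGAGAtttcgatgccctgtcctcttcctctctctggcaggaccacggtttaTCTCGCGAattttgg
CDK12: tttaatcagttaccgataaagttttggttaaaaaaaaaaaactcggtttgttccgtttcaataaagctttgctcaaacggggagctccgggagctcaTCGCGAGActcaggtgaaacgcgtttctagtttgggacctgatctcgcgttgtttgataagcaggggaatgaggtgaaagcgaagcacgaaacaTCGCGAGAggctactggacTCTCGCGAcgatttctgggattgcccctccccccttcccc
ERBB2: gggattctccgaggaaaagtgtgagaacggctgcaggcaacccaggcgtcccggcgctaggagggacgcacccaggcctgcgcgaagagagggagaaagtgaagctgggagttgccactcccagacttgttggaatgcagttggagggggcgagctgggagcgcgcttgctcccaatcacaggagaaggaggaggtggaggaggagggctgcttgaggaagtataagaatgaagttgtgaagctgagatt

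The word occurred 3 times in the MED1 stretch, beginning 98, 69 and 15 bases before the start. It occurred 3 times in the CDK12 stretch as well, beginning 153, 59 and 40 bases before the start. The ERBB2 stretch held none. None of these copies overlapped another. The word was chosen with these sequences in view. Promoters of 300 bases, of which 50 follow the start, were at hand for 6 of the members, and TCAP, PNMT and GRB7 had no entry. MED1 and CDK12 held the word, and STARD3, PGAP3, MIEN1 and ERBB2, the last at an upstream start beside PGAP3, did not. Over 15367 protein-coding genes with such a promoter, 276 (1.8%) held it on either strand. Of those 276, 27.5% had a start peak in shLacZ and 61.6% in shRRN3, against 8.38% and 26.4% of the 15091 promoters without it. The 276 include MED1 and CDK12, from which the word was chosen, and a role of the word was not tested. The GC share of the 300 bases was 52% for MED1 and 49% for CDK12. That was below the 60.7% of ERBB2 at its upstream start, the 67% of STARD3, the 73% of MIEN1 and the median of 63% over all these promoters. PGAP3, with 53%, was close to MED1. In the 250 bases printed above, the GC share was 50.4% for MED1, 48.8% for CDK12 and 58.8% for ERBB2.

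Pol II peaks were listed at CDK12 and MED1 and at no other member. In each list, 2 of 9 members had a peak in the gene or the 2 kb on either side, while 13.4% of all protein-coding genes did in shLacZ and 36.9% in shRRN3. The members thus stood above the background share in shLacZ and below it in shRRN3, with numbers too small to read more from them. In shLacZ this rested on a peak past the MED1 end that also spans the upstream bound of FBXL20. Without that peak, 1 of 9 members had one in shLacZ, which is below the background share. A peak with its midpoint within 1 kb of the start was found at 1 member in shLacZ (CDK12) and at 2 in shRRN3 (CDK12 and MED1), beside 8.19% and 25.4% of all genes. The other 7 members had 0 peaks in both lists, as had 61.7% of protein-coding genes. Long genes carried peaks more often than short ones. Among genes of 10 to 50 kb, the class of MED1, STARD3, PGAP3 and ERBB2, 60.9% had no peak in either list, and among genes under 10 kb, the class of TCAP, PNMT, MIEN1 and GRB7, 76.2% had none.

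**Figure D1:**
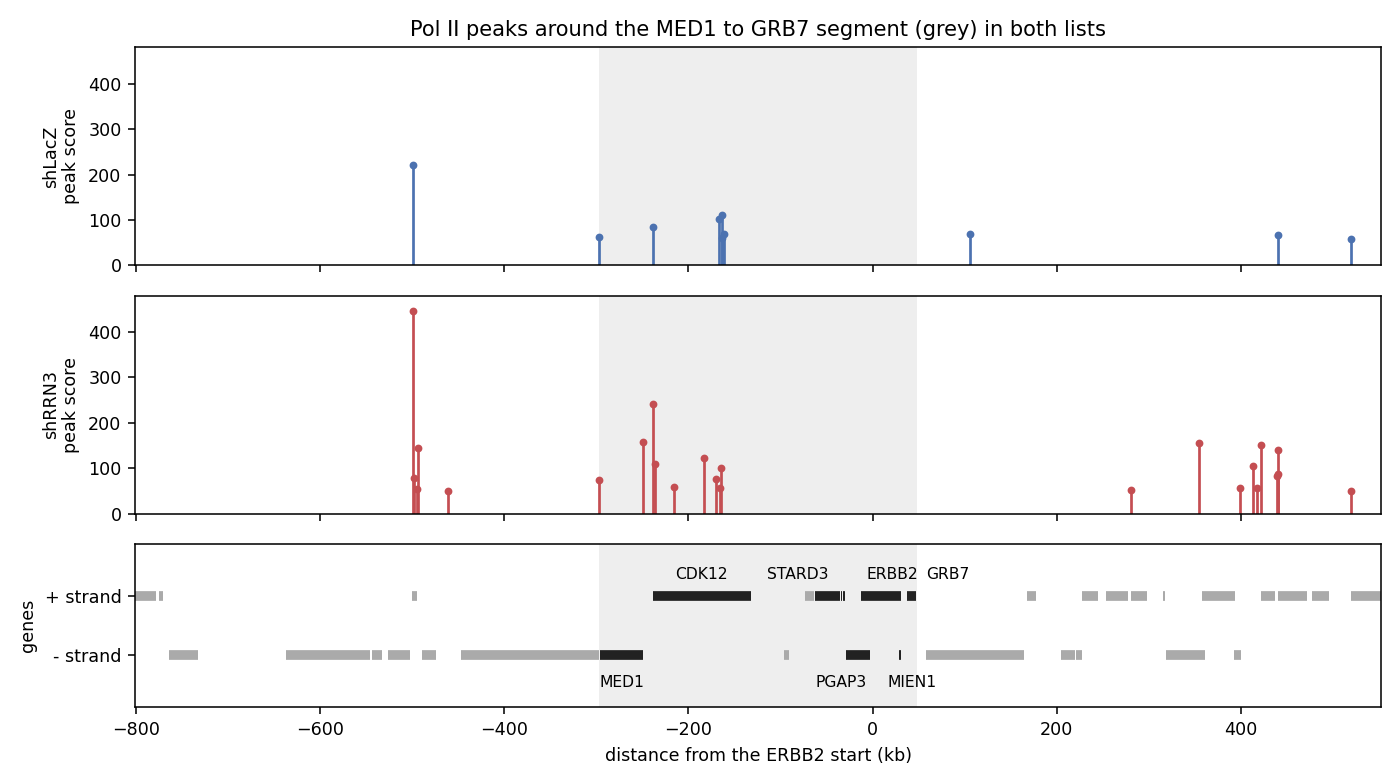
Each stem is a Pol II peak of shLacZ (top) or shRRN3 (middle), placed by its distance in kb from the ERBB2 start, with its height giving the peak score. The bottom panel shows genes on each strand, members in black (TCAP and PNMT, beside STARD3, are too short to label) and other protein-coding genes in grey. The 5 shLacZ and 8 shRRN3 peaks within the shaded segment all lie over MED1 and CDK12, and the stretch over ERBB2 is empty in both lists.

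CDK12 (chromosome 17, 39461486 to 39567559, plus strand) carried most of the peaks, 5 in shLacZ and 7 in shRRN3. Together they covered 2.88% of the gene and its 2 kb edges in shLacZ and 7.44% in shRRN3. At the start, shLacZ had a peak of 978 bp (39461114 to 39462091) with a score of 85.4. The score was given by the peak caller and was read here as a scaled p-value, higher for a peak that stood out more clearly, and 71.8% of shLacZ peaks scored at or below this one. In shRRN3 the start peak was 1936 bp wide (39461114 to 39463049) and began at the same base. Its score was 241, at percentile 95.9 of the shRRN3 list. A second shRRN3 peak followed within intron 1 (39463087 to 39463911, score 110, percentile 76). Scores depend on depth and are therefore read only within a list.

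Between the start region and the end of CDK12, peaks were found in shRRN3 and not in shLacZ. One lay in intron 2, 22.7 kb from the start (39483945 to 39484409), with a score of 58.7 that placed it at percentile 25.8. Another lay in intron 9, 55.9 kb from the start (39516924 to 39517789), with a score of 123 at percentile 81.1. The last of them lay in intron 13, 68.2 kb from the start (39528988 to 39530419), with a score of 76.8 at percentile 52.9. None of these 3 was overlapped by a shLacZ peak. The shRRN3 list held 14322 peaks against 3920 in shLacZ, so peaks found in shRRN3 alone are no mark of CDK12.

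Around the 3′ end of CDK12 both lists had peaks again. The MANE Select transcript has 14 exons and ends at 39534544, while the annotated gene runs 33015 bp further through other transcripts. In shLacZ a peak over exon 14 (39533163 to 39533872) had a score of 102 at percentile 80.7. It was followed past the transcript end by peaks centred 1.73 kb (39536128 to 39536413, score 60.2), 2.23 kb (39536480 to 39537061, score 112) and 3.78 kb (39538021 to 39538633, score 70.1) beyond it. The second of these had the highest score of the CDK12 peaks in shLacZ, at percentile 84.5. In shRRN3 a peak over exon 14 (39533316 to 39534645) had a score of 56.5 at percentile 20.2, and a single peak lay past the end, centred 1.01 kb beyond it (39534888 to 39536228, score 99.8, percentile 70.8). The exon 14 peaks of the lists shared 557 bp. The first shLacZ peak past the end shared 101 bp with the shRRN3 peak there, and the 2 farther ones were overlapped by none.

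**Figure D2:**
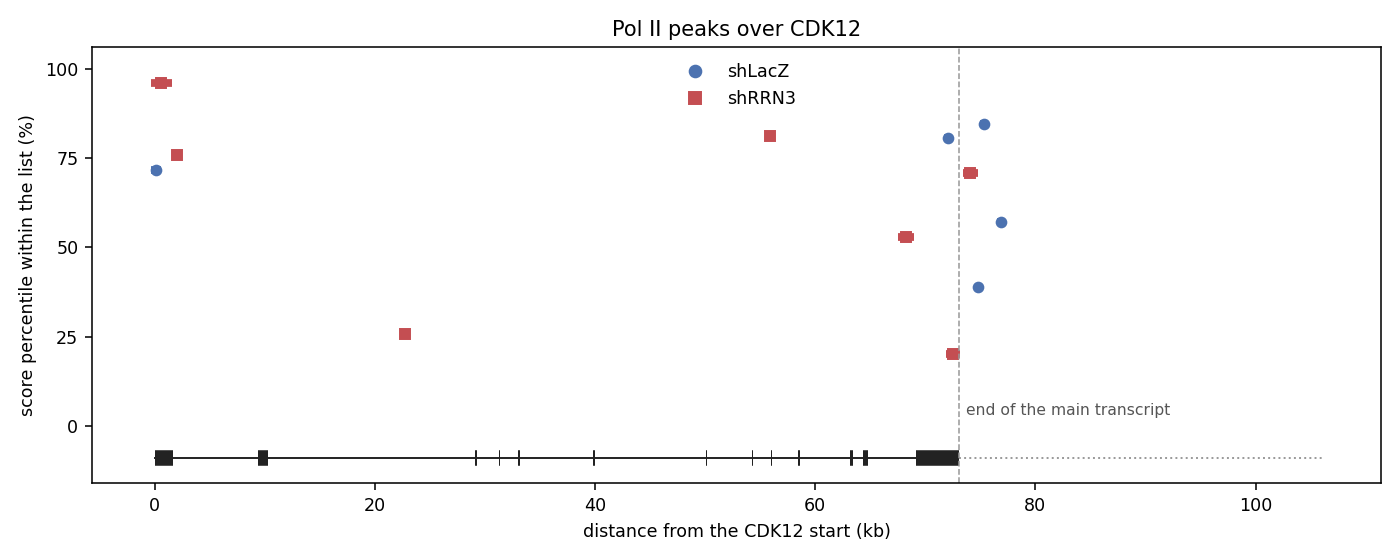
Peaks over CDK12 are placed by distance in kb from its start, with the height giving the percentile of the peak's score within its own list (circles for shLacZ, squares for shRRN3). Bars show the peak's width where it is wider than its marker. The line below shows the MANE Select transcript with its exons as boxes, and the dotted line the further annotated span. In shLacZ the peak at percentile 84.5 past the transcript end stands above the start peak at 71.8, whereas in shRRN3 the start peak at 95.9 stands above the end peak at 70.8.

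The highest CDK12 peak thus lay past the end in shLacZ and at the start in shRRN3. To see how common that was, genes of at least 10 kb with no other protein-coding start near the end were examined, a comparison chosen after the CDK12 values had been seen. The end region ran from 1 kb before to 6 kb past the MANE Select end, and peaks were counted in it by their midpoint. The midpoint of the shLacZ peak over exon 14 fell just before that region. Of 11442 such genes, 152 (1.33%) had a peak in the end region in shLacZ and 548 (4.79%) in shRRN3. CDK12, with 3 such peaks in shLacZ, was among 15 genes with at least that many there. Of genes with both a start and an end peak, the end peak scored higher in 14 of 31 in shLacZ (45.2%) and in 92 of 303 in shRRN3 (30.4%). Both kinds of peak were present in both lists at 21 genes, CDK12 included. Among them the end peak was the higher in shLacZ alone at 4, CDK12 being one, and in shRRN3 alone at 3. The change in order at CDK12 was thus about as frequent as the opposite one.

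MED1 (39404285 to 39451272, minus strand) had a start peak in shRRN3 and not in shLacZ. The shRRN3 peak was 1097 bp wide (39450471 to 39451567), was centred 244 bp downstream of the start in intron 1, and had a score of 158 at percentile 89. The nearest shLacZ peak to the MED1 start, that at CDK12, was 9.85 kb away. Both lists had a peak past the MED1 end, centred 1.52 kb beyond it in shLacZ (39402410 to 39403122, score 63.4, percentile 45.5) and 1.56 kb beyond it in shRRN3 (39402296 to 39403150, score 73.3, percentile 48.8). The shLacZ peak lay wholly within the shRRN3 one. These peaks also spanned the upstream bound of FBXL20, a subunit gene of a ubiquitin ligase that is transcribed from the minus strand just beyond MED1, so position alone assigns them to neither gene. Without them MED1 had no shLacZ peak.

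STARD3 (39637090 to 39664201, plus strand), TCAP (39665349 to 39666554, plus), PNMT (39667981 to 39670475, plus), PGAP3 (39671122 to 39696797, minus), ERBB2 (39687914 to 39730426, plus), MIEN1 (39728496 to 39730532, minus) and GRB7 (39737927 to 39747291, plus) had no peak in either list. The nearest peak to the ERBB2 start was 105 kb away in shLacZ, within IKZF3 on the far side of GRB7, and 164 kb away in shRRN3, at the end of CDK12. ERBB2 has a second annotated start 12150 bp upstream of the MANE Select one, close to the start of PGAP3 on the opposite strand, and there was no peak at that start either. The distance from a start to the nearest shLacZ peak ranged from 67.6 kb for GRB7 to 130 kb for PNMT among these 7 genes. In shRRN3 it ranged from 101 kb for STARD3 to 202 kb for GRB7. NEUROD2, a neuronal transcription factor gene, and PPP1R1B, which encodes a phosphatase inhibitor, are the 2 other protein-coding genes of the segment and also had none.

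The stretch without peaks around ERBB2 ran from 39538634 to 39805554 in shLacZ, a length of 267 kb that held the starts of 9 protein-coding genes. In shRRN3 it ran from 39536229 to 39979798, a length of 444 kb with 15 starts, and also took in IKZF3, ZPBP2, GSDMB, ORMDL3, LRRC3C and GSDMA. The median distance between neighbouring peaks was 158 kb in shLacZ and 35.2 kb in shRRN3. Of 14298 stretches between neighbouring shRRN3 peaks, 1542 were at least as long and 99 held at least as many gene starts. In shLacZ, 1650 of 3896 stretches were at least as long and 647 held at least as many starts. With the lists combined, NEUROD2 to GRB7 formed a run of 9 consecutive genes without a peak, and 284 of 3226 such runs were at least that long, holding 23.3% of protein-coding genes. In shRRN3 alone the run extended to GSDMA with 15 genes, and 109 of 3178 runs were at least that long, holding 14.4% of protein-coding genes. For the lists combined, 287 of 15532 stretches held at least as many gene starts as the 9 found here. A missing peak means that no enrichment passed the threshold of the peak caller, not that Pol II was absent. Copy number was not measured in these lists, and the number of gene copies and the amount of Pol II per copy cannot be told apart from peaks.

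The segment from MED1 to GRB7 (39404285 to 39747291, 343 kb) was then set against the 500 kb on each side. Peaks covered 0.924% of the segment in shLacZ (3169 bp in 5 peaks) and 2.71% in shRRN3 (9292 bp in 8 peaks). The left flank was covered at 0.411% and 0.863%, by 2 and 6 peaks. The right flank was covered at 0.247% and 1.68%, by 3 and 10 peaks. Segment coverage was 2.81 times that of both flanks combined in shLacZ and 2.13 times in shRRN3. In peak numbers per Mb the ratio was 2.92 in shLacZ (95% interval 0.671 to 12.7) and 1.46 in shRRN3 (0.54 to 3.61), so neither excess over the flanks was larger than the counting error of so few peaks. Against chromosome 17 as a whole the ratio was 5.62 in shLacZ (1.81 to 13.3) and 2.9 in shRRN3 (1.25 to 5.75). Against the primary chromosomes it was 11.5 (3.73 to 26.8) and 5.03 (2.17 to 9.91), and these 4 intervals lay above 1. The ratios take no account of gene density, which was higher in the segment. It held 11 gene starts in 343 kb, and both flanks together held 23 in 1000 kb. Chromosome 17 held 1186 in 83257 kb and the primary chromosomes 20033 in 3088270 kb. CDK12 alone held all 5 shLacZ and 7 of the 8 shRRN3 segment peaks. The intervals treat such clustered peaks as independent and may be too narrow. Chromosome 17 as a whole was covered at 0.134% and 0.56%, and the primary chromosomes (1 to 22, X and Y) at 0.0523% and 0.251%.

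**Figure D3:**
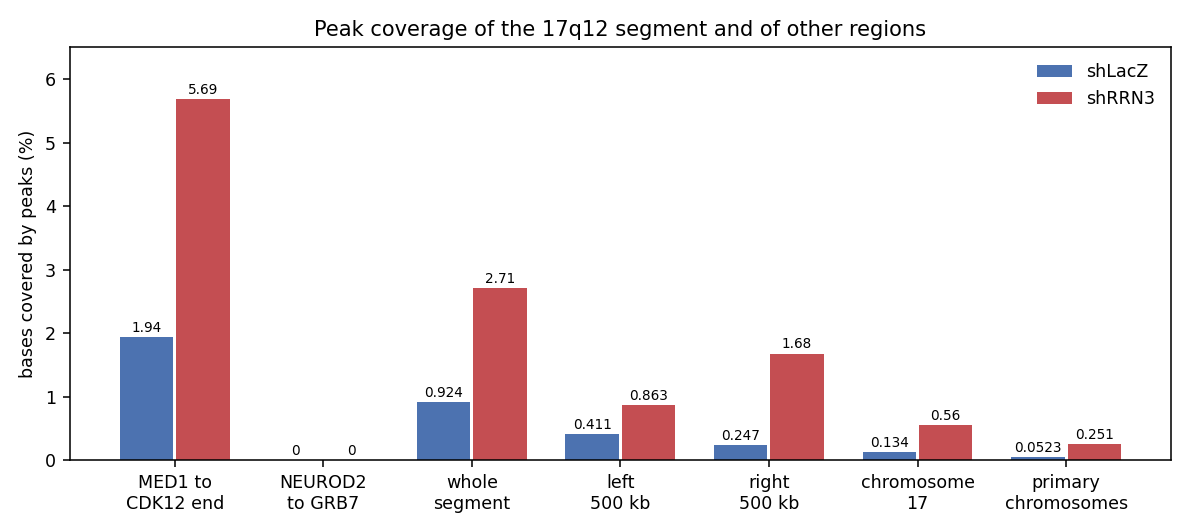
Bars give the percent of bases covered by peaks in each region, for shLacZ and shRRN3, on an axis that starts at 0. The part from MED1 to the end of CDK12 was covered at 1.94% and 5.69%, and the part from NEUROD2 to GRB7 at 0 in both lists.

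The coverage of the segment came wholly from its MED1 and CDK12 part. From MED1 to the end of the annotated CDK12 gene, 163 kb, coverage was 1.94% in shLacZ and 5.69% in shRRN3. From NEUROD2 to GRB7, 144 kb with 9 gene starts, it was 0 in both. The ratio of shRRN3 to shLacZ peaks was 1.6 in the segment (8 and 5 peaks, interval 0.462 to 6.22) and 0.8 when shRRN3 was cut to the length of the shLacZ list by score. With the full lists it was 3.2 in the flanks (16 and 5 peaks, 1.12 to 11.2), 3.1 on chromosome 17 (2.65 to 3.63) and 3.65 over the primary chromosomes (3.53 to 3.79), all within the interval of the segment. Segment peaks were wide for their lists, with a median of 613 bp in shLacZ against 306 bp over the whole list, and of 1214 bp in shRRN3 against 432 bp. Most flank peaks were also wider than these whole-list medians, so the width was not particular to the segment. It also rested largely on CDK12, which held all 5 shLacZ and 7 of the 8 shRRN3 segment peaks. Of the 5 shLacZ peaks in the segment, 3 were overlapped by a shRRN3 peak (60%, interval 14.7% to 94.7%), as were 3 of the 8 shRRN3 peaks by a shLacZ peak (37.5%, 8.52% to 75.5%). Under a stricter rule of 50% shared length on each side, the overlap was 20% of shLacZ and 12.5% of shRRN3 peaks, and with the shortened shRRN3 list it was 20% and 25%. The share over the whole lists is not given here, so these values do not set the segment apart from other regions.

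Of 9 protein-coding genes that touch the left flank, 2 had a peak in shLacZ and 3 in shRRN3, counted over the whole gene and its 2 kb edges. The highest-scoring was at the start of RPL19, a ribosomal protein gene, with a score of 220 in shLacZ (percentile 95.3) and 446 in shRRN3 (percentile 98.9), in each list above every peak of the segment. LASP1, an actin-binding protein gene that reaches past the outer bound of the flank, had peaks in shRRN3 only (highest score 257). Those peaks all lay past that bound and not within the flank. FBXL20 had the shared peak described with MED1. In the right flank, 3 of 15 genes had a peak in shLacZ (IKZF3, CASC3 and WIPF2) and 6 in shRRN3. Under the same rule, 13.4% of all protein-coding genes had a peak in shLacZ and 36.9% in shRRN3. IKZF3, a lymphoid transcription factor gene and the nearest to GRB7, had its peak in intron 3 (score 70) and none in shRRN3. The highest-scoring shRRN3 peaks there were at MED24, another Mediator subunit gene (score 156), at MSL1, which encodes part of a histone acetyltransferase complex (150), and at CASC3, a gene of the exon junction complex (141). NR1D1, a nuclear receptor gene, had a peak in intron 1 (56.5), and WIPF2 had one at its start (50.9) and a higher one past the outer bound of the flank (69.5).

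Genes that work with the members but lie elsewhere were examined as lists chosen for their known roles. Of 27 genes of ERBB signalling, from receptors and adaptors to kinases and chaperones, 7 had a peak in shLacZ and 19 in shRRN3, and all 7 were among the 19. These were 25.9% and 70.4%, beside 13.4% and 36.9% of all protein-coding genes. The other receptor genes had no shLacZ peak. In shRRN3, EGFR had 4 peaks with a highest score of 80.7 and ERBB3 had 1 with a score of 150, none of them within 1 kb of the start, and ERBB4 had none. Start peaks were present in both lists at NRAS, a small GTPase gene (scores 128 in shLacZ and 144 in shRRN3), at the chaperone genes HSP90AA1 (131 and 234) and HSP90AB1 (130 and 363), at ERRFI1, an inhibitor of ERBB kinases (88.4 and 123), at PIK3CB, a PI3-kinase subunit (72.9 and 187), and at AKT2, a kinase downstream of it (53.8 and 81.9). Scores depend on depth, so the paired scores given here and below are not compared between the lists. GRB2, GAB1, AKT1, HRAS, BRAF and MAP2K1 had no peak in either list, like ERBB2 and GRB7.

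Of 29 Mediator genes other than MED1, MED24 included, 4 had a peak in shLacZ and 16 in shRRN3. The shLacZ share of 13.8% was near the 13.4% of all protein-coding genes. In shRRN3 it was 55.2%, beside 36.9% of all genes. MED17 and MED28 had start peaks in both lists, with scores of 109 and 115 in shLacZ and of 155 and 86.7 in shRRN3. MED14 had a start peak in shLacZ alone (58.5), and MED15 had a shLacZ peak away from its start (56) and a start peak in shRRN3 (118). Among 4 genes close to CDK12 in function, its cyclin partner CCNK had a peak of score 52.2 in shRRN3 that was not at the start. CDK13, the nearest relative of CDK12, and CCNT1, a cyclin of another Pol II kinase, had start peaks in shRRN3 (104 and 109), and CDK9, that kinase, had none. None of these 4 had a shLacZ peak, where 13.4% of all protein-coding genes had one, so they are too few to read more from them.

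**Figure D4:**
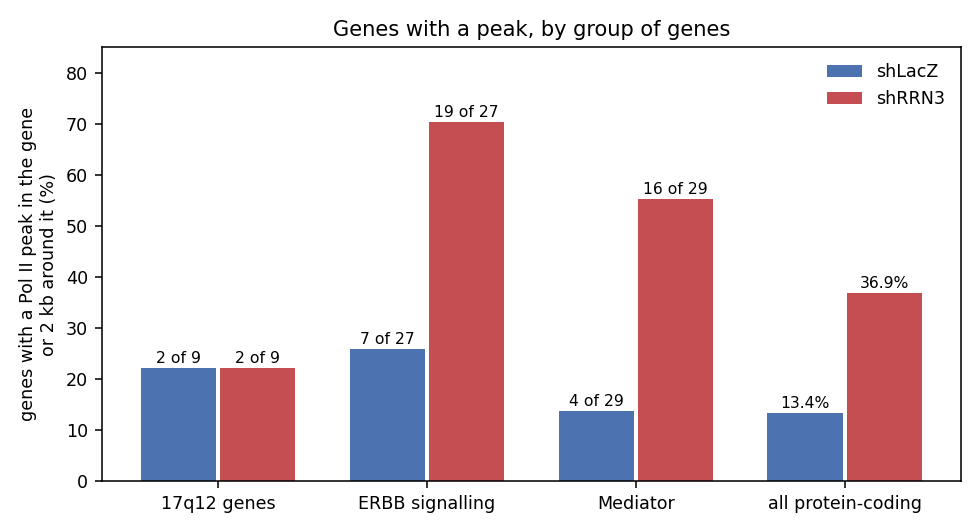
Bars give the percent of genes with a Pol II peak in the gene or the 2 kb on either side, in shLacZ and shRRN3, for the 9 members, 27 genes of ERBB signalling, 29 other Mediator genes and all protein-coding genes. Members stood at 2 of 9 in both lists, while the shares of the other groups were higher in shRRN3, as was that of all genes (13.4% and 36.9%).

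Over all, the lists held 3920 peaks in shLacZ and 14322 in shRRN3 on the primary chromosomes. A list of peaks carries no read counts, so the depth behind it is unknown here, and the intervals above cover counting error over peaks only. Neither list held a peak at the silenced gene itself, RRN3 (chromosome 16, 15060033 to 15094311), so the knockdown could not be checked from them. As a check of the cell line, PAX8, a Müllerian lineage factor, had start peaks in both lists (148 in shLacZ and 354 in shRRN3). The epithelial keratin genes KRT8 and KRT18 had peaks in shRRN3 only, as had EPCAM, and KRT19, CDH1, WT1 and MUC16 had none. Of 7 genes of leukocytes, endothelium and fibroblasts, 1 had a peak, PECAM1 with a score of 51.8 in shRRN3, away from its start. Since 61.7% of all protein-coding genes had no peak in either list, missing peaks at these markers say little about cell identity.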

How the data were processed

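Pol II ChIP-seq libraries of SK-OV-3 cells with shLacZ or shRRN3, 1 of each, were analysed. The 2 input libraries were not used here. The authors deposited 1 list per library, in which each peak has a chromosome, start, end, name and score. The deposited score was read as −log10 of a p-value multiplied by 10, as some MACS versions write it, since the lowest score in shLacZ was 50.03. No source states this. Peak names point to MACS, and the submitters' processing notes name hg38. The aligner, the caller's version and threshold, the treatment of duplicates and the use of the input are not given in the sources used here. The names are numbered without a gap in both lists.

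Peaks on primary chromosomes were set against GENCODE release 44. Starts were those of MANE Select transcripts, available for 19061 of 20033 protein-coding genes, and otherwise the bound of the gene. Peaks overlapped at 1 shared bp. Shares have exact Clopper-Pearson intervals and ratios of counts exact conditional intervals, both at 95%. Named genes were all members, the 2 other genes of the segment, up to 5 genes per flank with the highest-scoring shRRN3 peaks, the fixed lists, of which some genes are not reported here by name, and RRN3. The rule also asked for the 5 genes outside the segment most like ERBB2 in coverage over the 2 lists, but 12356 genes tied with it at 0, so none was named. Members and lists were chosen with earlier results of these data known. Gene windows, starts and overlaps were tested on simulated data with planted peaks and against bedtools 2.31.1. Python 3.11.15, numpy 2.4.6, scipy 1.17.1 and matplotlib 3.10.9 were used. Alternatives covered the score threshold, list length, windows, starts, flanks and overlap.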

Additional observations from a re-analysis of the deposited data

How the results depend on the processing

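The 13 values fixed for comparison were recomputed 54 times under other settings. The absence of peaks at STARD3, TCAP, PNMT, PGAP3, ERBB2, MIEN1 and GRB7 was not put to a test by them. A window of 0 kb and the stricter and reduced lists can only remove peaks. The 5 kb window could not reach a peak either, as the nearest to any of these starts was 67.6 kb away, at GRB7 in shLacZ. The number of members with a shLacZ peak was 1 rather than 2 in 3 settings, leaving CDK12: at scores of at least 65.6 (the shLacZ median), with the gene span alone, and without the peak over the bound of FBXL20, the last chosen after seeing the data. Cutting shRRN3 down to the length of the shLacZ list, by keeping the 3920 peaks with the highest scores, brought the distinct peaks at members from 9 to 4 and the coverage of the segment from 2.71% to 1.38%. It also left 3 CDK12 peaks, none at the 3′ end, because by construction it drops lower-scoring peaks of that list. Segment over flank coverage, or peak density, stayed above 1 in each setting, between 1.96 and 4.11 in shLacZ and between 1.46 and 2.62 in shRRN3. Overlap within the segment was 20% of shLacZ and 12.5% of shRRN3 peaks when at least 50% of both had to be shared, and the shRRN3 to shLacZ ratio was 0.8 in the reduced list, all within their intervals. No paired analysis was possible because each hairpin had 1 library. The few peaks in the segment limit every ratio given.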
